A study of Apis mellifera with 13 samples.

Results

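The expression of 5 genes that build the basement membrane was followed in honey bee antennae. The genes were the pair of type IV collagens, LOC408551 (GB45943) and LOC408552 (GB45968), together with BM-40-SPARC (GB43302), the nidogen gene Ndg (GB44198) and lox2 (GB49476), a lysyl oxidase-like gene. They were picked by symbol or NCBI gene number, but with earlier results of these data known, and make up 5 of the 13414 genes measured. All 5 passed the filter on low values in both experiments.

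The basement membrane is a thin protein sheet that lies under epithelia and around nerves, glia and muscle, and that separates them from the haemolymph. Its frame is a network of type IV collagen, joined to a laminin network by linker proteins such as nidogen, and stiffened outside the cell by enzymes that cross-link the collagen chains. In Drosophila most of the collagen is made by fat body and haemocytes, carried in the haemolymph and laid down on other organs. In the insect antenna such sheets wrap the nerve, the tracheae and the haemolymph vessel and underlie the sensory epithelium.

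RNA was sequenced from the flagella of hybrid ligustica and carnica workers of Apis mellifera, pooled at 8 pairs of antennae per library by the study's methods and at 4 pairs by its sample records. There were 4 libraries of bees seen performing Varroa sensitive hygiene (VSH), the uncapping and emptying of brood cells that hold the mite Varroa destructor, and 4 of bees never seen to do so (NVS). Mean ages were 7.5, 9.75, 12.5 and 17 days in VSH1 to VSH4 and 7.5, 9.5, 12.25 and 17.5 days in NVS1 to NVS4, so that libraries of the same number were matched by age. All these bees came from 1 donor colony selected for the behaviour and lived in 1 observation hive, which limits both groups to that stock. The groups were not alike in virus load. The study found a larger share of reads from bee viruses (the DWV/VDV complex) in the NVS libraries. It raises this load as a possible factor behind its own metabolic and motor gene differences. The other 5 libraries were of pollen foragers (FOR2 and FOR3) and of nurses (NUR1, NUR2 and NUR3), taken at work from 3 standard hives and of unknown age. Age and task therefore cannot be told apart between foragers and nurses. Here the study met the same viruses in 1 nurse and 1 forager sample alone. The part of virus load in the values of the 5 genes was not tested in either comparison. The labels name no treatment or genetic change in any group.

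Values are pseudo-counts, that is, read counts that the authors scaled to a common library size, with the VSH and NVS libraries scaled in 1 table and the FOR and NUR libraries in another. Levels are compared within a table alone, and levels of different genes are not compared, because no transcript lengths were used. Columns summed to 19200000 to 20300000 in the first table and to 33600000 to 34700000 in the second, so the sums do not carry the depth of a library. The antenna label was borne out by its marker genes, since all 8 odorant-binding protein and odorant receptor genes of the list that were found by symbol were present in every library. They summed to at least 772306 in each. NUR2 stood apart from the other libraries of its table. On the first principal component of that table, which held 46.8% of the variance, NUR2 lay at 66.1, NUR1 and NUR3 at 0.687 and 5.23, and FOR2 and FOR3 at -34.8 and -37.2. The fits of the 5 genes on foragers and nurses are therefore given with and without NUR2, while some values of other genes are given with NUR2 alone.

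The type IV collagens were higher in VSH than in NVS antennae of the same age, and both were lowest in the oldest bees of either group. LOC408551, annotated as similar to the Drosophila collagen viking, was at 2773, 2201, 2560 and 1480 in VSH1 to VSH4. In NVS1 to NVS4 it was at 2457, 1213, 1233 and 871.5. Each VSH library was above its age-matched NVS library, by 1.13, 1.82, 2.08 and 1.70 times, but the groups overlapped because the youngest NVS library was above VSH2 and VSH4. The means were 2254 ± 567 in VSH and 1444 ± 696 in NVS (SD, n = 4 each).

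LOC408552, the other type IV collagen chain, was at 1570, 1057, 1322 and 724.6 in VSH1 to VSH4. In NVS1 to NVS4 it was at 1278, 625.2, 685.0 and 441.7. Its order over the libraries was that of LOC408551, with VSH above NVS by 1.23, 1.69, 1.93 and 1.64 times in the pairs from young to old. The means were 1168 ± 362 in VSH and 757.5 ± 362 in NVS (SD, n = 4 each). Within both groups most of this spread followed the age of the bees, as the plot against mean age shows.

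**Figure D1:**
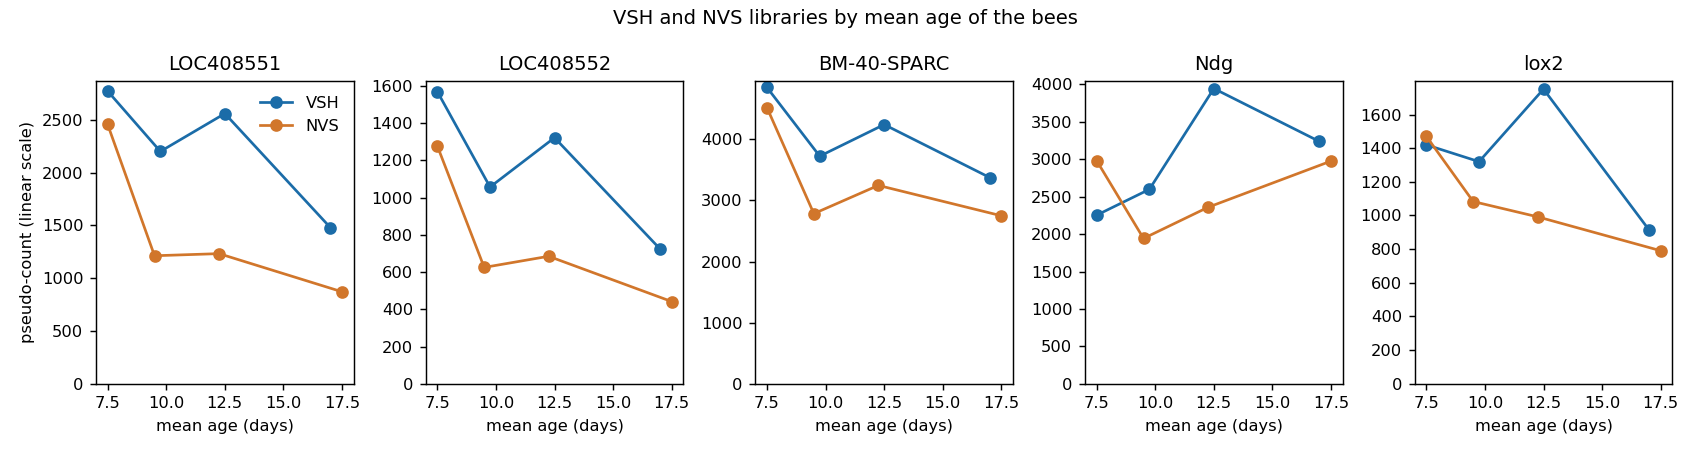
Pseudo-count (linear scale from 0, scaled within 1 table) of each gene in each VSH and NVS library against the mean age of its bees in days; each point is 1 library and lines join the libraries of a group. Both collagens were highest at 7.5 days and lowest in the oldest library of each group, and the VSH point lay above the NVS point of the same pair at every age, from 2773 against 2457 to 1480 against 871.5 for LOC408551.

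BM-40-SPARC encodes a collagen-binding glycoprotein which, in Drosophila, is needed for collagen IV to enter basement membranes. It was at 4847, 3723, 4240 and 3374 in VSH1 to VSH4. In the NVS libraries it was at 4517, 2783, 3245 and 2748. VSH was above NVS in all 4 pairs here as well, by 1.07 to 1.34 times, with means of 4046 ± 642 and 3323 ± 827 (SD, n = 4 each) and overlapping groups.

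Ndg, which in mammals links laminin to collagen IV, had another pattern. It was at 2253, 2598, 3945 and 3238 in VSH1 to VSH4. The NVS libraries held 2982, 1942, 2358 and 2976. The youngest pair was reversed, with VSH at 0.756 times NVS, and the other pairs had VSH above NVS by 1.34, 1.67 and 1.09 times. The group means were 3008 ± 746 and 2564 ± 508 (SD, n = 4 each), and the groups overlapped.

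The lox2 gene is annotated as lysyl oxidase-like 2, an enzyme family that cross-links collagen outside the cell. It was at 1420, 1320, 1751 and 914.7 in VSH1 to VSH4. The NVS libraries held 1471, 1083, 992.1 and 790.7. The youngest pair was nearly level at 0.965 times, and the largest gap was in the third pair, at 1.77 times. Means were 1352 ± 345 in VSH and 1084 ± 285 in NVS (SD, n = 4 each), and the groups overlapped.

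**Figure D2:**
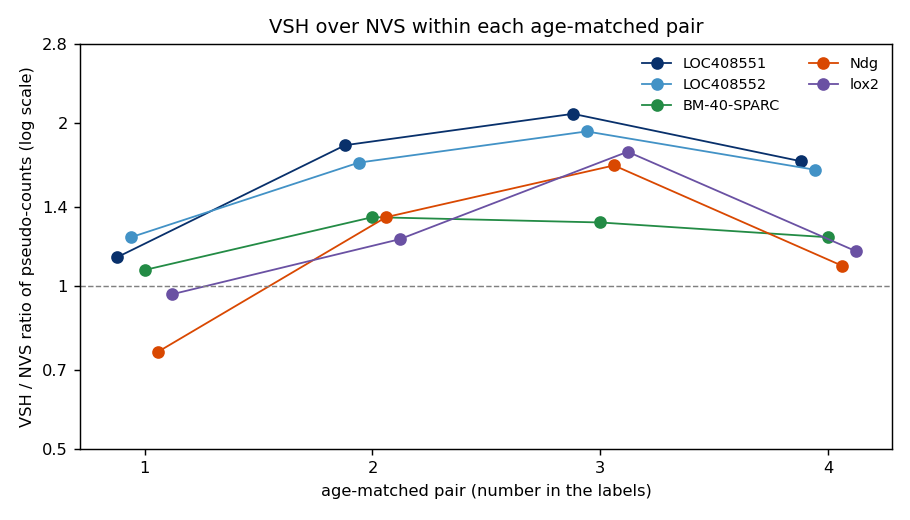
Ratio of the VSH to the NVS pseudo-count within each age-matched pair, on a log axis, for the 5 genes; points are slightly offset sideways, pair 1 is the youngest and the dashed line marks equal values. Both collagens and BM-40-SPARC lay above the line in all 4 pairs, with the collagens at 1.13 to 2.08, while Ndg (0.756) and lox2 (0.965) lay below it in pair 1 alone.

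VSH was above NVS in all 4 pairs for 3 of the 5 genes, against 11.5% of the 10204 genes tested. In the unpaired limma fit on log2(value + 1), which treats the libraries as 4 against 4, none of the 5 genes passed the adjusted threshold of 0.05, where 0.0392% of all genes (4) did. Both collagens had an unadjusted p under 0.05 with higher values in VSH, a criterion met by 5.73% of all genes. The log2 difference was 0.71 for LOC408551 (95% interval 0.15 to 1.28, adjusted p = 0.344) and 0.68 for LOC408552 (0.07 to 1.28, adjusted p = 0.392). All 5 differences were positive, with a median of 0.32 against -0.0024 over all genes, of which 49.4% were positive. Single libraries moved the smaller differences, with BM-40-SPARC at 0.46 without NVS1 in place of 0.30. From 0.32, lox2 went to 0.18 without VSH3 or NVS4, 0.49 without VSH4 and 0.48 without NVS1, and from 0.22 Ndg went to 0.08 without VSH3, 0.09 without NVS2 and 0.35 without VSH1.

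The pairs narrowed the intervals and altered the call. With the age-matched pair as a block, both collagens rose in VSH at a limma adjusted p of 0.0163, with intervals of 0.47 to 0.95 for LOC408551 and 0.47 to 0.88 for LOC408552. BM-40-SPARC rose by 0.30 (0.16 to 0.44, adjusted p = 0.0462). These were 3 of the 5 genes, against 0.853% of all genes called higher in VSH by the paired fit. Ndg, at 0.22 (-0.07 to 0.51, adjusted p = 0.431), and lox2, at 0.32 (0.08 to 0.56, adjusted p = 0.173), did not pass.

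The paired calls rested on few pairs. Of the 10204 genes, 127 passed with all 4 pairs and 213, 26, 2 and 13 without pairs 1 to 4. Without pair 1, the youngest, 4 of the 5 genes passed, Ndg among them at 0.43 (limma adjusted p = 0.0481), and LOC408551 stood at 0.89 (adjusted p = 0.000914). Without pair 2 LOC408552 alone passed (0.65, adjusted p = 0.0318). Without pair 3 or pair 4 none passed, although the collagens still differed by 0.59 to 0.70 (adjusted p = 0.0649 to 0.0867). When the mean age of each library replaced the pair in the fit, the adjusted p was 0.08 for LOC408551 and 0.111 for LOC408552, and none of the 5 genes passed.

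**Figure D3:**
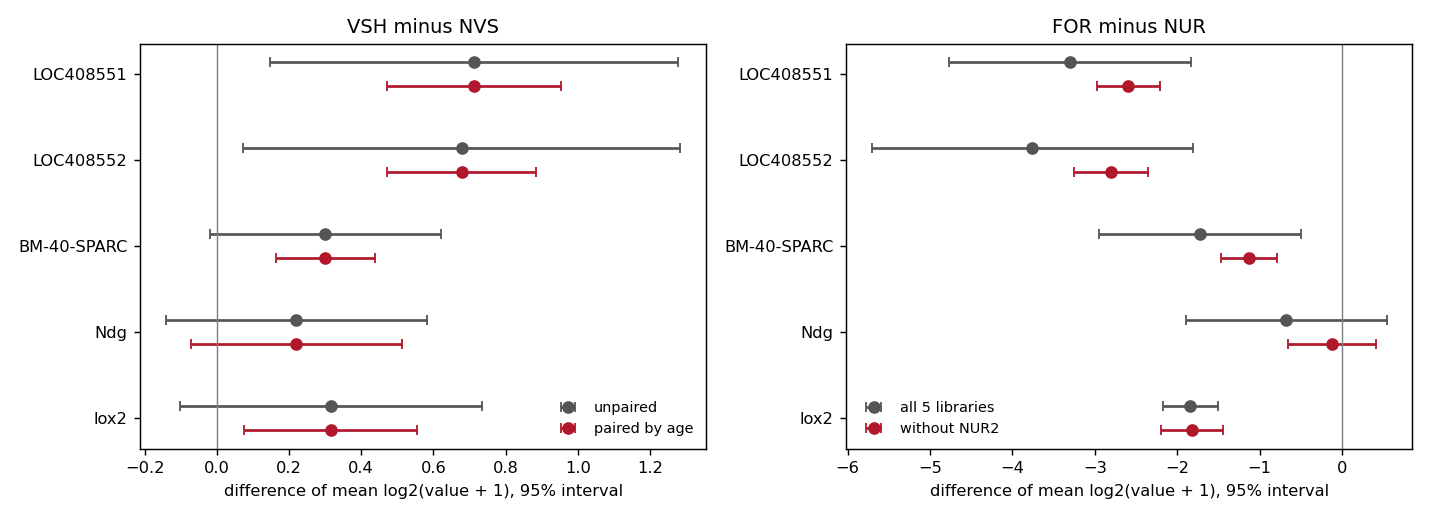
Difference of the group means of log2(value + 1) with its 95% interval from limma, for VSH minus NVS (left, unpaired in grey and paired by age in red) and for FOR minus NUR (right, all 5 libraries in grey and without NUR2 in red); the vertical line marks 0. The paired intervals of both collagens and BM-40-SPARC lie above 0, and without NUR2 the FOR minus NUR intervals of every gene except Ndg lie below 0, at -2.81 for LOC408552.

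Along the age of the bees the collagens had the steepest negative slopes of the 5 genes. The youngest library held 1.87 times the LOC408551 level of the oldest in VSH and 2.82 times in NVS bees. For LOC408552 the same ratios were 2.17 and 2.89. The slopes over the 8 libraries, with the group as a term, were -0.11 log2 units per day for both (LOC408551, 95% interval -0.15 to -0.06; LOC408552, -0.16 to -0.07). Their limma adjusted p of 0.0567 and 0.0541 missed the threshold, which 15 genes, or 0.147%, passed.

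The slope of lox2 was -0.070 per day (-0.109 to -0.031, limma adjusted p = 0.152), and that of BM-40-SPARC was -0.048 per day (-0.081 to -0.014, adjusted p = 0.241). Ndg had a positive slope of 0.039 per day, with an interval of -0.0051 to 0.0835 that took in 0 (adjusted p = 0.469). Without NVS1 the slope of BM-40-SPARC was -0.030 and that of Ndg 0.066, and without VSH1 that of Ndg was 0.025. Thus 4 of the 5 genes had negative slopes at an unadjusted p under 0.05, against 5.27% of all genes, and 0 of 5 passed after adjustment. Whether the collagens passed was decided by single libraries. Without VSH3, the library with a second high value at 12.5 days, LOC408551 and LOC408552 passed at 0.0286 each and lox2 at 0.0189, in a fit where 61 genes did. Without NVS2 the collagens passed at 0.0283 and 0.0252, whereas without NVS1 their adjusted p were 0.128 and 0.18. The limma adjusted p of LOC408551 and LOC408552 were 0.435 and 0.428 without NVS4, 0.217 each without VSH4, and 0.195 and 0.209 without VSH1.

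Negative collagen slopes were seen in each group taken alone. In the VSH libraries the slopes were -0.085 for LOC408551 and -0.10 for LOC408552, and in the NVS libraries -0.12 and -0.13, and none of the 5 genes passed in these smaller limma fits, where 0 of the 10204 genes did (595 and 834 at an unadjusted p under 0.05, with 4 and 3 of the 5 among them). The slopes of VSH and NVS bees differed by 0.039 per day for LOC408551 (-0.053 to 0.132, limma adjusted p = 0.999). For the other 4 genes the difference of slopes lay between 0.0078 and 0.0402, with intervals that took in 0. None of the 10204 genes passed that test in limma, and 0 of the 5 genes were among the 2.86% of genes (292) with an unadjusted p under 0.05.

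Nurse antennae held more collagen transcript than forager antennae, a difference that passed the test only when NUR2 was left out. LOC408551 was at 1095 and 1328 in FOR2 and FOR3 and at 6312, 31921 and 8400 in NUR1 to NUR3. LOC408552 was at 436.8 and 642.0 in the foragers and at 3553, 26894 and 3875 in the nurses. Even the lowest nurse library was above both forager libraries for either gene, and NUR2 was above every other library by 3.80 and 6.94 times. In pools of whole flagella, more collagen-making cells and more transcript per cell cannot be told apart.

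Nurse means over forager means were 12.8 for LOC408551 and 21.2 for LOC408552, and fell to 6.07 and 6.89 when NUR2 was left out. The forager means were 1212 ± 165 and 539.4 ± 145 (SD, n = 2). The nurse mean of LOC408551 was 15545 ± 14221 over 3 libraries and 7356 ± 1477 over NUR1 and NUR3, and that of LOC408552 was 11441 ± 13384 and 3714 ± 228 (SD). For both genes NUR2 alone held more than NUR1 and NUR3 together.

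BM-40-SPARC followed the collagens at a smaller scale. It was at 3257 and 2850 in the foragers and at 7546, 22833 and 5913 in the nurses, again without overlap and with NUR2 at 3.03 times the next library. Nurses exceeded foragers 3.96-fold, or 2.2-fold without NUR2.

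Ndg shared the high value in NUR2 and little else. Its forager values were 3448 and 5621 and its nurse values 5480, 15141 and 4200, so that FOR3 was above NUR1 and NUR3. Without NUR2 the nurse mean was 1.07 times the forager mean.

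The lox2 gene separated the groups without help from NUR2. It was at 715.2 and 681.1 in the foragers and at 2170, 2577 and 2809 in the nurses. NUR2 lay between the other nurses, at 0.918 times NUR3, and the ratio of means was 3.61 with NUR2 and 3.57 without it.

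Every nurse library was above every forager library for 4 of the 5 genes, against 16.5% of the 10436 genes tested. With all 5 libraries, lox2 alone passed in limma, where 0.0383% of genes were called lower in foragers. It fell by 1.84 on the log2 scale from nurses to foragers (95% interval -2.18 to -1.51, adjusted p = 0.0195). The differences of LOC408551 (-3.30, -4.77 to -1.84, adjusted p = 0.132), LOC408552 (-3.76, -5.70 to -1.81, adjusted p = 0.161) and BM-40-SPARC (-1.72, -2.95 to -0.50, adjusted p = 0.274) were larger or similar but varied more. Ndg differed by -0.68 (-1.89 to 0.54, adjusted p = 0.625).

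Leaving out NUR2 made the differences smaller and the calls more numerous. LOC408551 fell by 2.59 in foragers (-2.98 to -2.21, limma adjusted p = 0.00187), and LOC408552 fell by 2.81 (-3.25 to -2.36, adjusted p = 0.00228). They ranked 3 and 4 by p among the 10436 genes. BM-40-SPARC fell by 1.13 (-1.47 to -0.80, adjusted p = 0.0224), and lox2 fell by 1.82 (-2.19 to -1.45, adjusted p = 0.0091). These 4 of 5 genes compare with 0.287% of all genes called lower in foragers without NUR2. Ndg stood at -0.12 (-0.66 to 0.41, adjusted p = 0.86), so a change of up to 0.66 on the log2 scale was within its interval. Leaving out another nurse library gave no call for the collagens or BM-40-SPARC. Without NUR1, LOC408551 was at -3.76 (limma adjusted p = 0.11), LOC408552 at -4.27 (0.157) and BM-40-SPARC at -1.93 (0.281). Without NUR3 they were at -3.56 (0.248), -4.20 (0.248) and -2.11 (0.281). LOC408551 was at -3.16 without FOR2 and -3.44 without FOR3, and LOC408552 at -3.48 and -4.04.

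The lox2 call depended on 3 of the 5 libraries. The difference stayed between -1.94 and -1.76 whichever library was left out, and passed without NUR1 (limma adjusted p = 0.024) as well as without NUR2. Its adjusted p was 0.396 without FOR2, 0.487 without FOR3 and 0.0873 without NUR3, fits in which 0 of the 10436 genes passed, with 736, 832 and 1202 genes at an unadjusted limma p under 0.05. The Ndg difference, which passed in no fit, was -1.05 without NUR3. In the fits without FOR2 or FOR3, the lone forager library was taken to vary as the nurses did.

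The value of NUR2 was at least 2 times that of every other forager or nurse library for 4 of the 5 genes, against 2.32% of all genes. Marker genes stood out in NUR2 as well. Of the 8 antennal genes, 7 were lowest in NUR2, such as Obp4 at 19561 against 42472 to 69633 and Obp5 at 96532 against 156313 to 193668, and Obp1 was highest, at 356988 against 141261 to 216152. Among fat body and haemolymph genes, the yolk protein gene Vg was at 577.8 in NUR2 and at 43.87 to 149.3 in the other libraries of its table. HEX70b (50.29 against at most 20.97) was also highest in NUR2, as were, by little, Rfabg (2822 against at most 2737) and ILP-2 (182.2 against at most 177.4). The iron carrier gene Tsf1 was lowest there, at 5806 against 13653 to 22058, as was the hexamerin gene Hex110, at 0.09457 against 18.63 to 22.17. The part of these tissues in the NUR2 values was not tested.

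Of the marker lists of other tissues, only that of haemocytes had sums that lay apart between foragers and nurses. Its 7 genes summed to 12623 to 13297 in foragers and 14129 to 15635 in nurses, and 6 of the 7 were lower in foragers. Most of the sum was drpr, at 7629 and 7646 in foragers and 8775, 8146 and 9259 in nurses. Under the name draper this gene was also planned as a glial marker, so the sum does not stand for haemocytes alone. For drpr, PPO and NimA every nurse library was above every forager library, as for 16.5% of all genes. Pvr was lower in every nurse library, and Hml, NimC1 and NimC2 overlapped. None of the 7 genes was called in limma on all 5 libraries, where 2 of the lower genes and the higher one, Pvr (0.33), had an unadjusted p under 0.05, as did 1357 of all 10436 genes. Without NUR2 the prophenoloxidase gene PPO passed, at -2.02 (adjusted p = 0.0242), with 143.2 and 223.8 in foragers and 801.8, 1368 and 667.6 in nurses. The fat body list of 9 genes summed to 24143 to 28327 in foragers and 12308 to 26934 in nurses, with 5 of the 7 tested higher in foragers and the hexamerin gene Hex70c at 0 in all 5 libraries. Tsf1 alone held 17915 and 22058 in foragers and 13653, 5806 and 21387 in nurses. The sum of the 7 muscle genes was nearly all Mlc-c, a cytoplasmic myosin light chain gene, at 5944 to 7437, while the other 6 were at 283.1 or less. These 7 genes, 5 of them higher in foragers, summed to 6121 to 6736 and 6152 to 7750, with Mp20 at 0 in every nurse library. The 3 glial genes, 2 of them higher in foragers, summed to 19989 to 22285 and 18932 to 24899. Without NUR2, 6 of the 7 muscle genes and 0 of the 3 glial genes were higher in foragers. None of these genes was called in the fit of all 5 libraries. The part of these tissues in the collagen result was not tested.

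The summed lists overlapped between VSH and NVS, although 6 of 7 haemocyte, 6 of 8 fat body, 6 of 7 muscle and 3 of 3 glial genes tested were higher in VSH. Over all genes the share higher in VSH was 49.4%. The summed haemocyte genes ran from 7764 to 8562 in VSH and from 7380 to 7885 in NVS, the fat body genes from 12511 to 18753 and from 14231 to 18281, and the glial genes from 9869 to 11067 and from 9123 to 11097. The muscle list, again mostly Mlc-c (3354 to 3860), ran from 3458 to 4941 and from 3419 to 3867, with VSH4 the highest library, at 305.4 for Mp20 where the other VSH and NVS libraries held at most 12.84. In the paired fit 2 fat body genes passed, the lipophorin gene Rfabg (adjusted p = 0.0254) and the hexamerin gene Hex70a (adjusted p = 0.0488, at 349.9 in VSH4 and at most 7.051 elsewhere), and no haemocyte, muscle or glial gene did. Of all 10204 genes 127 passed that fit. With age 4 of 7 haemocyte genes had negative slopes, while 7 of 8 fat body and 7 of 7 muscle genes had positive ones, with 0 called by limma and 1, 3 and 1 at an unadjusted p under 0.05. Over all genes 51.2% of slopes were positive, and 1252 of 10204 had an unadjusted p under 0.05. VSH4, at 17 days, was far above the other libraries for Vg (2146 against at most 203.9), Hex110 (175 against at most 32.67) and TpnT (339.9 against at most 39.59). Tsf1, HEX70b, ILP-2, Mvl and Mlc-c were highest in other libraries. From NVS1 to NVS4 Vg went from 69.39 to 69.84 and TpnT from 22.03 to 8.896. The part of VSH4 in these slopes and in the counts higher in VSH was not tested. The part of these tissues in the collagen values was not tested.

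The collagens ran in parallel over the libraries of both tables. In log2 values they correlated at r = 0.992 over the 8 VSH and NVS libraries and at 0.996 over the 5 others, or 0.995 without NUR2. The ratio of LOC408551 to LOC408552, not corrected for length, was 1.77 to 2.08 over VSH and NVS libraries and 1.78 to 2.51 in the forager and nurse libraries other than NUR2. In NUR2 it was 1.19, so LOC408552 was raised there more than LOC408551. Ndg correlated with LOC408551 and LOC408552 at 0.232 and 0.177 over the VSH and NVS libraries, at 0.763 and 0.817 over foragers and nurses, and at 0.224 and 0.315 without NUR2. These values describe libraries that also share their scaling.

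The collagens are direct neighbours on chromosome 16 in a later bee assembly used for gene order alone, Amel_HAv3.1, as their Drosophila counterparts are. The genes on either side did not share their levels. LOC410637, next to LOC408551, ranged from 1124 to 1523 in VSH and NVS and from 2424 to 3290 in foragers and nurses, without a separate level in NUR2 (2424). LOC725204, next to LOC408552, was at 3.225 to 90.51 in foragers and nurses, and was highest in FOR3.

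Both collagens were among the most variable genes. Over the VSH and NVS libraries the highest value was 3.18 times the lowest for LOC408551 and 3.55 times for LOC408552, above 98.6% and 99.0% of 8133 genes with a mean of at least 50, for which the median was 1.33. The ratio was 2.21 for lox2, 2.03 for Ndg and 1.76 for BM-40-SPARC. Over foragers and nurses it reached 29.2 and 61.6 for the collagens, and 7.67 and 8.87 without NUR2, against a median gene of 1.39 and 1.30.

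The genes whose profile was most like that of the collagens were sought among 8128 genes by the smaller of Pearson's r over the 8 and over the 5 libraries. Next after the collagens themselves came BM-40-SPARC (r = 0.963 and 0.967). It had not been used in the profile, but it was picked with earlier results of these data known, so its rank is not independent. It was followed by the chemosensory protein gene CSP2 (0.955 and 0.995), Dat (dopamine N acetyltransferase, 0.954 and 0.947), the tetraspanin gene Tspan9 (0.941 and 0.974) and LOC100577378 (0.934 and 0.961). Without NUR2 these r values were 0.922 to 0.999 over 4 libraries. CSP2 was at 216.6 and 278.7 in foragers and at 777.8, 1799 and 832.2 in nurses, and thus had the same order of libraries as the collagens. With the collagens counted as 1 and 2 and BM-40-SPARC as 3, lox2 ranked 27 and Ndg 1518.

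Of the other extracellular matrix genes, 16 were listed in the files, some found through descriptions of genes that the study had picked on these libraries, so that the list is not independent of them. The laminin genes LanA and LanB1 were listed at 0 in all 13 libraries, whereas the laminin gene LanB2 was at 1792 to 2045 in VSH and NVS and at 3361 to 3786 in foragers and nurses. Whether the zeros reflect expression or the gene models and counting is not known, so they are not read as absence. Between VSH and NVS 9 of the 13 tested were higher in VSH, with a median of 0.07 against -0.0024 for all genes and 0 called by limma (2 at an unadjusted p under 0.05, as were 1139 of all 10204 genes). In the paired fit 1 passed. That was LOC409949, annotated as similar to agrin, a basement membrane proteoglycan of vertebrates, at 1383 to 1577 in VSH and 931.9 to 1277 in NVS, with no overlap (0.43, adjusted p = 0.178 unpaired and 0.0254 paired). The study had itself listed this gene as higher in VSH on these same libraries, so its call here is not independent of that choice.

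Dg, the laminin receptor dystroglycan, was at 673.1 to 804.3 in VSH and 547.9 to 703.1 in NVS (0.26, adjusted p = 0.348). The transmembrane proteoglycan gene kon was low, at 2.471 to 28.08, and LOC408394, annotated as similar to collagen XI, at 1.079 to 38.53. With age 10 of the 13 had negative slopes, with a median of -0.012 per day, and 0 were called by limma or had an unadjusted p under 0.05.

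In foragers all 14 matrix genes tested were lower than in nurses, with a median of -0.41 against 4e-04 for all genes, and 0 passed in limma (6 at an unadjusted p under 0.05, as were 1357 of all 10436 genes). Without NUR2 the median was -0.32, 13 of 14 were lower (dally was at 0.17), and 0 passed (3 at an unadjusted p under 0.05, as were 1311 of all genes). Pxn, the peroxidase that in Drosophila cross-links collagen IV, was at 1273 and 1425 in foragers and at 1767, 2606 and 2012 in nurses (-0.64, adjusted p = 0.237). The integrin gene if was at 1486 and 2046 in foragers and 2078, 2403 and 2620 in nurses (-0.43, adjusted p = 0.353), and Dg differed by -0.38 (adjusted p = 0.341). Both showed every nurse library above every forager library, by less than the collagens did. The same order was seen for Pxn, kon, PH4alphaEFB, LanB2, Tango1, LOC408394 and LOC724950, the last annotated as similar to an integrin beta. The other matrix genes tested overlapped. Over all genes the share with this order was 16.5%. For kon, the values of 25.3 and 16.95 in foragers and 53.28, 105.2 and 63.31 in nurses gave -1.72 (adjusted p = 0.237).

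None of the matrix list genes that act on collagen inside the cell, named after their values were seen, passed between foragers and nurses. PH4alphaEFB, a prolyl hydroxylase that modifies collagen chains in Drosophila, was at 963.4 and 1305 in foragers and 1414, 1589 and 1365 in nurses (-0.37, adjusted p = 0.401). Tango1, which in Drosophila helps to export collagen from the endoplasmic reticulum, was at 4119 and 3791 in foragers and 4428, 4448 and 4496 in nurses (-0.17, adjusted p = 0.497). LOC408428, annotated as similar to peptidyl-prolyl isomerase B, which in mammals folds collagen, was at 0.4013 and 2.091 in foragers and 5.995, 24.0 and 1.181 in nurses (-1.80, adjusted p = 0.579, and -0.91 without NUR2). It was low in every library and highest in NUR2.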

How the data were processed

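Per the sample records and the study's methods, the authors prepared stranded libraries, called bases with CASAVA 1.8.2, checked reads with FastQC, used TopHat2 with Bowtie2 2.2.3 for alignment to bee genome assembly 4.5, made gene counts in HTSeq 0.6.1p1, and applied Relative Log Expression normalisation in edgeR 3.4.0. The strand setting of the counting is not given in the sources used here. The deposited values have the unit signal: pseudo-counts at a common library size, made separately for each table, so that they do not carry the depth of a library, and no counting interval is given.

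Values below 1e-10 were set to 0. Genes with a sum of at least 20 (VSH and NVS) or 15 (FOR and NUR) were tested with limma 3.58.1 in R 4.3.3 (lmFit, eBayes with trend) on log2(value + 1), and the two-sided p-values of all tested genes were adjusted by Benjamini-Hochberg (threshold 0.05). Fold changes on this scale are understated for low genes. The pooled libraries are the replicates, and p-values measure only the spread between them. VSH and NVS numbers were taken as pairs, since the labels match them by age. Their deviations from the group means correlated at 0.161, 0.215, 0.276 and 0.388 over 8133 genes. These values were not set against those of libraries of unlike number, so they do not show a likeness particular to the pairs.

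The 5 genes were always named. Of the matrix and marker lists, genes past the threshold and up to 4 with the smallest p were named, and others after their values were seen. Marker lists were searched by exact symbol. Planned markers not found that way, such as Orco, the muscle gene Mhc and the glial gene Gs2, are not in the counts and sums. Members and lists were chosen with earlier results of these data known. Another reference table (Amel_HAv3.1) matched 10485 of 13414 genes, all 5 members among them. The limma step was tested on simulated data. Alternatives were other pseudocounts, filters and scalings, each library left out, a replicate block and age terms.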

Additional observations from a re-analysis of the deposited data

How the results depend on the processing

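None of the 5 genes changed direction between VSH and NVS, between foragers and nurses, or with age under any alternative run. Leaving out single libraries moved the count of genes called from 4 to between 0 and 11 (VSH and NVS), from 10 to between 0 and 76 (FOR and NUR) and from 15 to between 0 and 61 (age slope), and of the 5 genes from 1 to between 0 and 4 (FOR and NUR) and from 0 to between 0 and 3 (age slope). Between VSH and NVS no filter on low values gave 2 genes, and the replicate block gave 127 genes, 3 of the 5 among them. The block without each pair in turn, chosen after seeing the data, gave 213, 26, 2 and 13 genes without pairs 1 to 4, and 4, 1, 0 and 0 of the 5. Between foragers and nurses a pseudocount of 0.5, no filter and a minimum mean of 10 gave 4 genes each, and the replicate block 6, with lox2 still called. FOR and NUR share the numbers 2 and 3 alone (deviations correlated at 0.157 and 0.44) and were not taken as pairs. For the age slope no filter, the VSH libraries alone and the NVS libraries alone gave 0 genes each. The difference of slopes between VSH and NVS, which passed in no fit, changed sign when single libraries were left out: it ran from -0.0207 to 0.1111 for LOC408551, -0.0298 to 0.0834 for LOC408552, -0.0357 to 0.0457 for BM-40-SPARC, -0.0147 to 0.1433 for Ndg and -0.0055 to 0.1445 for lox2. The causes were not tested.

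With 2 forager libraries, and with pseudo-counts that do not carry the depth of a library, intervals are wide, and a p over the threshold does not show that a gene was level.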

Other observations

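LOC408394, annotated as similar to collagen XI, was at 399.5 in NUR2, at 24.5 to 26.65 in the other nurses and at 4.0 and 11.54 in foragers. Its difference between foragers and nurses did not pass in limma (adjusted p = 0.362, and 0.378 without NUR2). Dat, the dopamine N acetyltransferase gene, was at 26541 in NUR2, at 9291 and 11112 in the other nurses and at 6837 and 7234 in foragers. PPO, whose product is activated in the haemolymph to form melanin, was at 753.7, 378.7, 433.8 and 205.0 in VSH1 to VSH4 and at 498.6, 181.5, 193.2 and 241.8 in NVS1 to NVS4, with a slope of -0.12 per day (adjusted p = 0.244).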
